A study of Mus musculus with 6 samples.

Results

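Imprinted genes are transcribed mainly from the allele of a single parent, the choice being kept by DNA methylation set in the germ line. Many of them encode regulators of growth, secretion and cell number, and several are active in endocrine cells. Neuronatin, encoded by Nnat, is a small proteolipid of the endoplasmic reticulum that associates with the signal peptidase complex, which cuts the signal peptide from preproinsulin in mouse beta cells, and Nnat lies within an intron of the Blcap gene. The arrays read RNA of both parental alleles together, so the values below are total levels and carry no information on imprinting itself.

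The genes considered were Nnat, Peg3, Peg10, Dlk1, Meg3, Mest, Plagl1, Cdkn1c, Igf2 and H19, taken as all non-control probes whose transcript accession carries that symbol. Of the 10 genes, 9 were found, with 20 probes, among 20659 named genes on the array. No probe matched H19 by accession, and that gene was not analysed here. The list was assembled by gene name with results of this comparison known, and Nnat was singled out, that is chosen by its lower signal here, so the members' changes are a description and are given without a p-value.

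RNA came from MIN6B1 cells, a mouse insulinoma line used as a beta cell model. The cells were transfected for 48 h with an siRNA against circHIPK3, a circular RNA of the Hipk3 locus, or with siGFP, an siRNA against green fluorescent protein, as the control. Each group had 3 samples, with 1 single-colour Agilent array per sample, and nothing in the labels says that they were separate cultures, so the errors below may be technical. All 3 siGFP arrays and circHIPK3 siRNA replicate 1 carried the same scan identifier, and circHIPK3 siRNA replicates 2 and 3 another. Arrays with the same identifier are read here as sharing a slide, which the labels do not state.

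The 75th percentile of the processed signal was 2939 to 3669 units per array, and 77.7% to 83.5% of probes were well above background. All 12 beta cell markers examined, among them Ins1, Pdx1 and Mafa, were well above background on all arrays, and their summed level was 475.3 to 521.5 times the 75th percentile in siGFP arrays and 449 to 512.6 times in circHIPK3 siRNA arrays. Of the markers of other cell types, Hhex of delta cells, Pdgfra of fibroblasts and Cdh5 of endothelium were at background on every array. In the same lists 1 of 2 delta cell, 4 of 6 fibroblast and 2 of 3 endothelial genes were well above background on all arrays. So were both pancreatic polypeptide and epsilon cell genes, and the 2 macrophage and 3 acinar and ductal cell genes that had probes. The delta cell level (0.0239 to 0.0277 against 0.0284 to 0.0350) and the summed level of both pancreatic polypeptide and epsilon cell markers (0.361 to 0.455 against 0.465 to 0.559) were low and did not overlap between groups, and their part in the results below was not tested. None of 31 tested marker probes of all cell types passed limma's test, and 8 had an unadjusted p under 0.05, against 21.1% of all tested probes. A Kdr probe among the 8 was well above background on no siGFP array. It entered only through the circHIPK3 siRNA arrays, where it was higher, so nothing is read from its p. Of the 30 probes well above background on all 6 arrays, 7 had an unadjusted p under 0.05. In bulk RNA a smaller number of expressing cells and less RNA per cell cannot be told apart.

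Both Nnat probes and the brighter Plagl1 probes separated the groups, in opposite directions, and the upstream sequence of each is shown to place these genes. The lines below give the 250 bases before the annotated start, from RefSeq (build GRCm38.p6), read 5′ to 3′ on the gene's strand, with every CpG dinucleotide, the site of DNA methylation, in capitals.
Nnat, chr2:157559828-157560077, + strand: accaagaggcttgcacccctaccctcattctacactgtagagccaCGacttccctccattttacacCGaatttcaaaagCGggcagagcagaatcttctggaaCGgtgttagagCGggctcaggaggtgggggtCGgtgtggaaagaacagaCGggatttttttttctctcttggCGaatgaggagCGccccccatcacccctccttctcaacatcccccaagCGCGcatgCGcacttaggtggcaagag
Plagl1, chr10:13090582-13090831, + strand: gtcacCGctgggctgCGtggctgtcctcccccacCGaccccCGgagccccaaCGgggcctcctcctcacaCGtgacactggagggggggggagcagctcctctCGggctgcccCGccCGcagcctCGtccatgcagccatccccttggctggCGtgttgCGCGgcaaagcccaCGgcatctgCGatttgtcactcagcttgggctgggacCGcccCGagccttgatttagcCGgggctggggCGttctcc

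The Nnat window held 12 CpG dinucleotides and had a G and C content of 54.8%, and 33.5% of 32851 such windows of mouse genes held at least as many. The Plagl1 window held 19 CpG dinucleotides at a G and C content of 70.4%, a count reached by 19.7% of windows. The letters GGGGCCCC, a palindrome that reads the same on both strands and that the protein PLAGL1 is known to bind, were searched in the 13 windows held for 7 of the genes. They occurred in 1 of the 13 windows, that of Peg3, and in neither of the windows printed above. The share over all windows was 0.889%, and with 13 windows searched nothing is read from the match. A match is a description of letters and not of binding.

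Levels are log2 processed signals minus the 75th percentile of the same array, so that 0 is the 75th percentile, and they are not comparable between probes. Changes are circHIPK3 siRNA minus siGFP on the log2 scale, with the standard error (SE) of a limma fit by probe. A probe entered the fit if every array of either group flagged it as well above background, which 14 of the 20 probes, from all 9 genes, did. Of these, 13 were well above background on all 6 arrays, and a Mest probe entered only through the circHIPK3 siRNA arrays. The median change of all 31371 tested probes was 0.08, and median scaling of the arrays moved it by -0.10. Changes are therefore also given relative to that median where it matters.

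**Figure D1:**
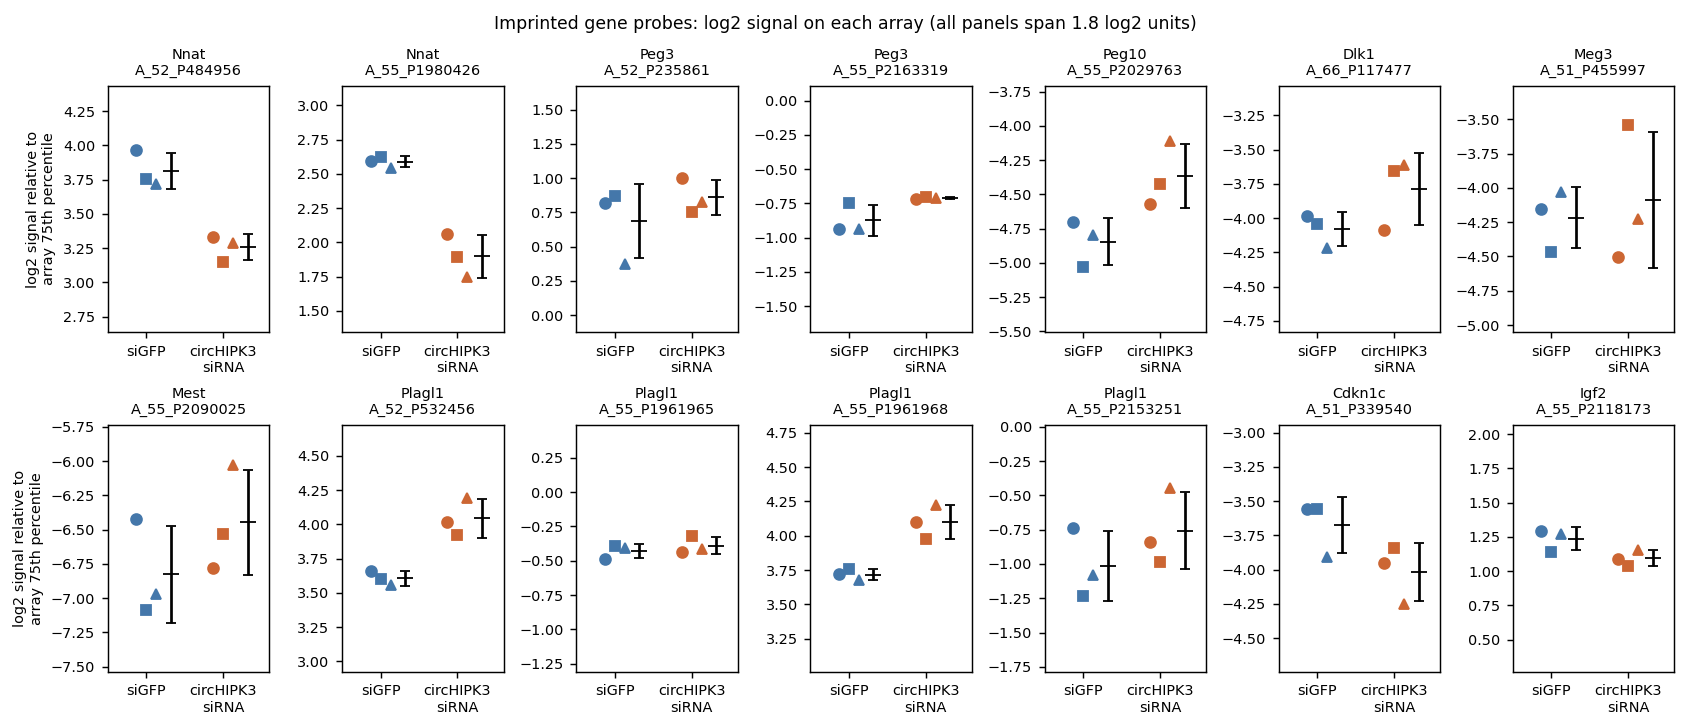
Log2 signal relative to the 75th percentile of the array (y axis) for the 14 tested probes, with siGFP arrays in blue, circHIPK3 siRNA arrays in orange, circles, squares and triangles for replicates 1, 2 and 3, and bars for the mean ± SD (n = 3). Both Nnat probes lie lower in all circHIPK3 siRNA arrays, and 2 of 4 Plagl1 probes lie higher, with no overlap.

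Nnat was read by 2 probes of the same transcript. Probe A_55_P1980426 gave 2.60, 2.62 and 2.54 on the siGFP arrays and 2.06, 1.90 and 1.74 on the circHIPK3 siRNA arrays. Every circHIPK3 siRNA array lay below every siGFP array, and the gap between the groups was larger than the spread within either. The means were 2.59 ± 0.04 and 1.90 ± 0.16 (SD, n = 3), a change of -0.69 ± 0.11 (SE), or 1.61-fold lower. Probe A_52_P484956 gave 3.97, 3.76 and 3.72 on the siGFP arrays and 3.33, 3.15 and 3.29 on the circHIPK3 siRNA arrays. Here too the groups did not overlap, and siGFP replicate 1 stood highest. Its means were 3.81 ± 0.13 and 3.26 ± 0.10 (SD, n = 3), a change of -0.55 ± 0.11 (SE), or 1.47-fold lower. Relative to the median of all probes the changes were -0.76 and -0.63, whereas the brightest quartile of tested probes, which holds both, had a median change of -0.01. The gene's signal thus remained far above background in both groups, with all 6 arrays flagged as well above it for both probes and none saturated. Within the first slide, where circHIPK3 siRNA replicate 1 is set against the 3 siGFP arrays, the changes were -0.53 and -0.48.

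Plagl1 encodes a zinc finger transcription factor, paternally expressed and also known as Zac1, that restrains cell growth. Its 4 probes did not give the same picture. Probe A_55_P1961968 gave 3.72, 3.75 and 3.68 on the siGFP arrays and 4.10, 3.97 and 4.23 on the circHIPK3 siRNA arrays, without overlap, a change of 0.38 ± 0.10 (SE) and 1.30-fold. Probe A_52_P532456 gave 3.66, 3.60 and 3.55 against 4.01, 3.92 and 4.19, a change of 0.44 ± 0.11 (SE) and 1.35-fold. All circHIPK3 siRNA arrays again lay above all siGFP arrays. The first slide alone gave 0.38 and 0.41 for these probes, and relative to the median of all probes the changes were 0.31 and 0.36. The other pair of Plagl1 probes overlapped between groups. Probe A_55_P1961965 gave -0.49, -0.39 and -0.41 against -0.44, -0.32 and -0.41, a change of 0.04 ± 0.09 (SE) that had the opposite sign under median scaling (-0.06) and within the first slide (-0.01). Probe A_55_P2153251 gave -0.74, -1.23 and -1.08 against -0.84, -0.99 and -0.44, a change of 0.26 ± 0.18 (SE). The files give all 4 probes the same transcript accession, and the place of each on the transcript is not known here. For probes A_55_P1961968 and A_55_P1961965, a pair picked after their values were seen, the difference on the same array was 0.39, 0.15 and 0.49 above the siGFP mean on the circHIPK3 siRNA arrays, with an SD of 0.06 over the siGFP arrays.

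Peg3, a paternally expressed gene for a large zinc finger protein, was read by 2 probes. Probe A_52_P235861 gave 0.82, 0.87 and 0.37 against 1.00, 0.75 and 0.82, and the groups overlapped (0.17 ± 0.15, SE). Probe A_55_P2163319 gave -0.94, -0.75 and -0.94 against -0.72, -0.70 and -0.71, a change of 0.17 ± 0.10 (SE). The circHIPK3 siRNA arrays lay close together and just above the highest siGFP array. Relative to the median of all probes the changes were 0.10 and 0.09.

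Igf2, which encodes an insulin-like growth factor and is expressed from the paternal allele, gave 1.30, 1.14 and 1.27 on the siGFP arrays and 1.09, 1.04 and 1.16 on the circHIPK3 siRNA arrays. The groups overlapped, and the change was -0.14 ± 0.10 (SE). Dlk1 encodes a membrane protein related to Notch ligands, and its probe A_66_P117477 gave -3.98, -4.04 and -4.22 against -4.09, -3.66 and -3.61. The higher values came from circHIPK3 siRNA replicates 2 and 3 alone, which share a slide. The change was 0.30 ± 0.15 (SE), and -0.0047 within the first slide. A second Dlk1 probe, A_55_P2105371, was well above background on 2 circHIPK3 siRNA arrays and on no siGFP array, and no fold is given for it.

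Cdkn1c, the maternally expressed gene of a cyclin-dependent kinase inhibitor, gave -3.56, -3.56 and -3.91 on the siGFP arrays and -3.96, -3.84 and -4.25 on the circHIPK3 siRNA arrays. The lowest siGFP array lay below the highest circHIPK3 siRNA array, so the groups overlapped by a small margin. The change was -0.34 ± 0.15 (SE), and -0.42 relative to the median of all probes.

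Meg3 is a long non-coding RNA expressed from the maternal allele beside Dlk1. Its tested probe A_51_P455997 gave -4.16, -4.47 and -4.03 against -4.51, -3.54 and -4.22. The groups overlapped widely, the change was 0.13 ± 0.25 (SE), and it had the opposite sign under quantile normalization (-0.02) and within the first slide (-0.29). The other Meg3 probes, A_52_P196568 and A_55_P2033407, were not well above background, apart from the latter on circHIPK3 siRNA replicate 3.

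Peg10 derives from a retrotransposon and encodes a gag-like protein. Its probe A_55_P2029763 gave -4.70, -5.03 and -4.80 on the siGFP arrays and -4.57, -4.43 and -4.11 on the circHIPK3 siRNA arrays. The groups did not overlap, and the change was 0.48 ± 0.15 (SE), with 0.31 under quantile normalization and 0.28 within the first slide. The second probe, A_52_P377723, was at background on all 6 arrays. Mest, which encodes a protein of the alpha/beta hydrolase fold, was near background. Its probe A_55_P2090025 was well above background on 1 siGFP array and on all 3 circHIPK3 siRNA arrays (0.38 ± 0.24, SE, with overlap), and its change was 0.01 with normexp background correction. Probe A_55_P2151868 was above background on 1 siGFP array only, and none of the 10 spots of probe A_51_P124535 was above it on any array.

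Dim probes as a whole were shifted in this comparison. The dimmest quartile of tested probes, which holds those of Peg10 and Mest, had a median change of 0.27, and the next quartile, which holds those of Dlk1, Meg3 and Cdkn1c, had 0.13. The brighter quartiles had 0.02 and -0.01, and those hold the Nnat, Plagl1, Peg3 and Igf2 probes. Under quantile normalization the 4 medians lay between 0.01 and 0.04. The part of this shift in the changes of Peg10, Mest and Dlk1 was not tested.

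**Figure D2:**
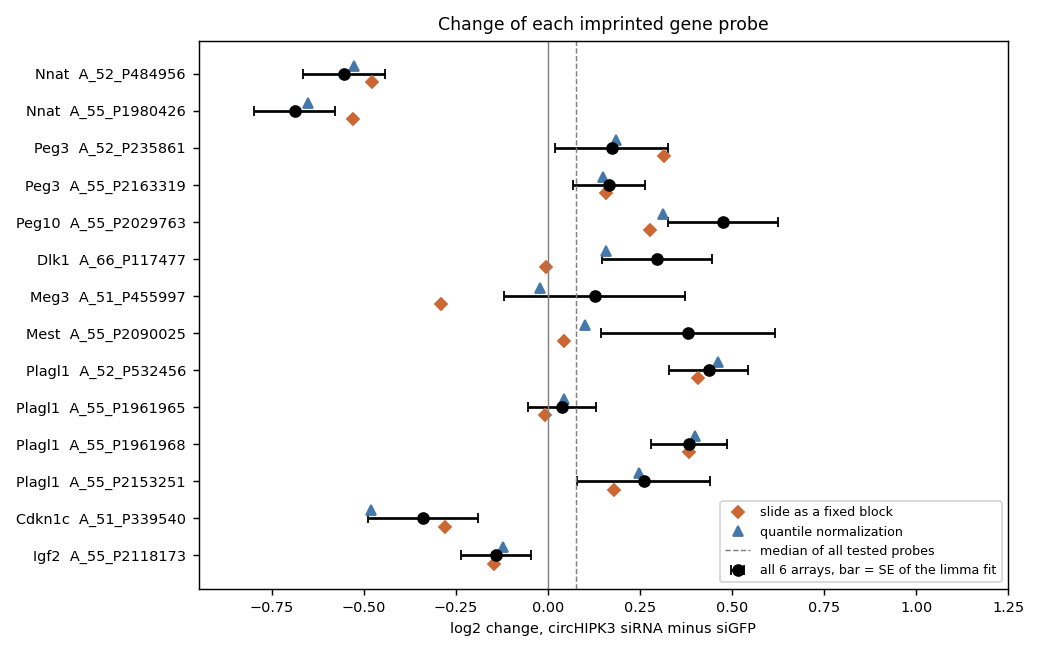
Log2 change of each tested probe (x axis) from all 6 arrays with the SE of the limma fit (black), with slide as a fixed block (orange) and after quantile normalization (blue). With slide as a fixed block the change is that of circHIPK3 siRNA replicate 1 alone against the 3 siGFP arrays. The dashed line is the median of all tested probes, 0.08. Nnat stays near -0.5 or below in all 3 fits, whereas Dlk1, Meg3 and Mest approach or cross 0 with the slide as a block.

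Of the 14 tested probes, 1 passed limma's test across all probes with Benjamini-Hochberg adjustment at 0.05, the Nnat probe A_55_P1980426. Of all probes 1.34% passed, 0.755% lower and 0.587% higher, which were 237 and 184 probes (302 and 54 under quantile normalization, 530 and 256 under median scaling, 321 and 62 with normexp, 223 and 44 in the deposited value table). Groups did not overlap for 6 of the 14, 2 lower and 4 higher, against 25.9% of all probes, 9.74% lower and 16.2% higher. Because the list was made with this contrast known, nothing is read from these counts. The Nnat call was lost on leaving out any 1 of the siGFP arrays, or replicate 2 or 3 of the other group. It was also lost with slide as a fixed or random block, with the first slide alone, with the replicate block, without the filter on dim probes and in the deposited value table. Both Nnat probes passed without circHIPK3 siRNA replicate 1, where the groups lie on separate slides. The median change of the 14 probes was 0.17, and 5 lay below the median of all probes.

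The genes whose profile lay closest to that of Nnat over the 6 arrays were Cacnb3, Nop10, Srp9, Ubxn8 and Cpne2. Each probe was centred on its siGFP mean, and the root mean square difference from the mean of both Nnat probes was 0.0407, 0.0455, 0.0486, 0.0499 and 0.0616 log2 units. The Nnat probes themselves differed by 0.151. Cacnb3 encodes a voltage-gated calcium channel subunit and changed by -0.64. Srp9 encodes a subunit of the signal recognition particle, Nop10 a small nucleolar ribonucleoprotein and Cpne2 a copine. They were selected for likeness in this contrast, so their changes of -0.66 to -0.57 are no separate result.

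The other genes of the members' chromosomal domains were examined next, from a list of 32 of which 24 were tested with 32 probes. This list and those that follow were also chosen with earlier results of these data known. Their limma p-values are therefore descriptions and no separate support. None passed limma's test, and 8 probes had an unadjusted p under 0.05, against 21.1% of all probes. Groups did not overlap for 11 probes higher and 1 lower, against 16.2% and 9.74% of all probes. These counts include the Pon3 probe, which was tested only through the circHIPK3 siRNA arrays. The median change was 0.08, equal to that of all probes to 2 decimals. Blcap, which surrounds Nnat, gave 2.61, 2.35 and 2.60 on the siGFP arrays and 2.28, 2.61 and 2.60 on the circHIPK3 siRNA arrays, a change of -0.02 ± 0.13 (SE, adjusted p = 0.940 by limma). The groups overlapped fully. Phactr2, beside Plagl1, encodes a phosphatase and actin regulator and gave 0.56 ± 0.12 and 0.34 ± 0.11 (SE) by its 2 probes, without overlap and short of the threshold (limma adjusted p = 0.0720 and 0.152).

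In the Dlk1 and Meg3 domain, all 4 tested probes had positive changes, as had all 6 beside Peg10 and both beside Plagl1. The median change of all probes was 0.08. The dimmest quartile and the next, which hold the 4 probes, had 0.27 and 0.13, so nothing is read from this count. Dio3, which encodes a deiodinase that inactivates thyroid hormone, gave -6.20, -6.41 and -6.28 against -5.81, -5.88 and -5.79, a change of 0.47 ± 0.10 (SE, limma adjusted p = 0.0662). Begain, at the other end of the domain, gave 0.49 ± 0.11 (SE, limma adjusted p = 0.0805). Both were without overlap and both are dim probes. In the Igf2 and H19 domain, Lsp1 gave 0.27 ± 0.11 (SE) without overlap, and the insulin gene Ins2, an imprinted gene of the mouse yolk sac, gave -0.12 ± 0.10 (SE). Beside Cdkn1c, the antisense RNA Kcnq1ot1, made from the paternal allele, gave -0.36 ± 0.14 and -0.24 ± 0.14 (SE) by its 2 probes. Beside Peg10, Pon3, a paraoxonase gene, was well above background on 0 of 3 siGFP arrays and was at least 1.29-fold higher on the circHIPK3 siRNA arrays, short of the threshold (limma adjusted p = 0.0820). It entered the fit only through the group where it is higher, so nothing is read from this p. For this bound each siGFP array was given its dimmest signal among probes well above background, or the probe's own signal if higher. Beside Peg3, Usp29 gave 0.28 ± 0.11 and Zim1 0.21 ± 0.11 (SE) by the probes whose groups did not overlap, and beside Mest no probe separated the groups.

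**Figure D3:**
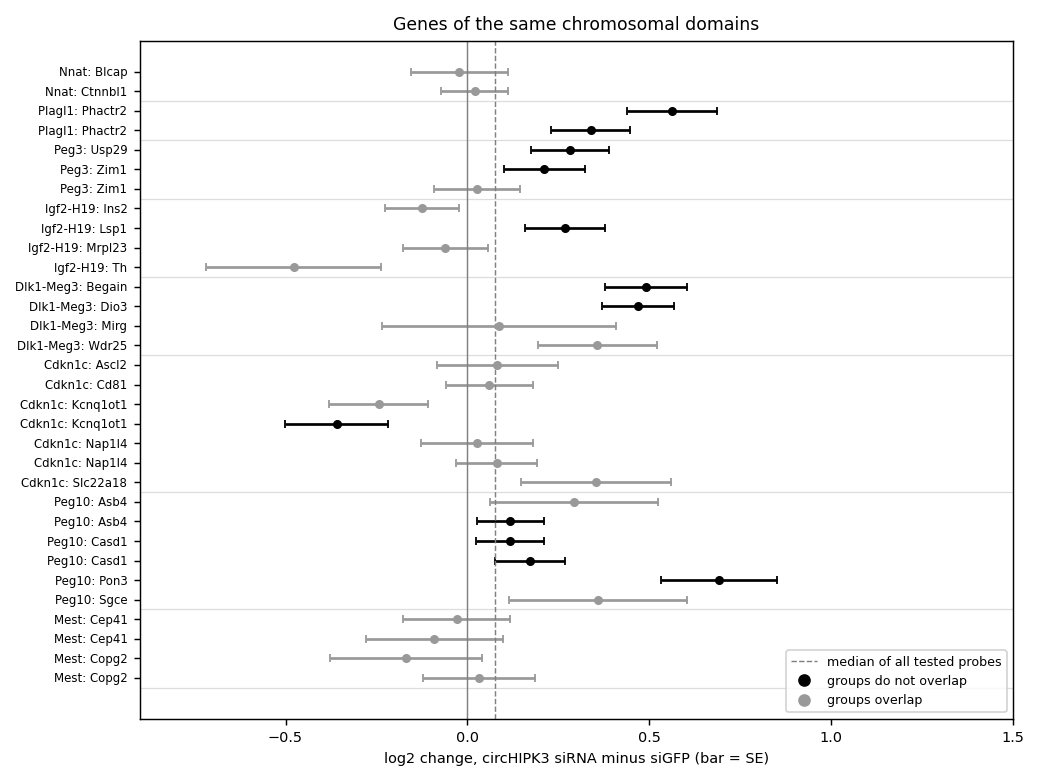
Log2 change with SE (x axis) of the 32 tested probes of genes in the chromosomal domains of the members, labelled by domain and gene, in black where the groups did not overlap. No probe passed the test, the Blcap value lies at 0 and both Phactr2 probes lie to the right. Pon3 is drawn at its fitted value although it was not well above background on the siGFP arrays.

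Of 40 further imprinted genes, 33 were tested with 51 probes, and 17 of the 40 are also in the domain list. Nap1l5 rose by 1 probe, and the other 50 probes did not pass, against 1.34% of all probes that passed, so the count is near the background. Nap1l5 is a paternally expressed gene of the nucleosome assembly protein family. Its probe A_51_P295410 gave 2.53, 2.47 and 2.53 on the siGFP arrays and 3.15, 2.98 and 3.03 on the circHIPK3 siRNA arrays. The groups lay far apart relative to their spread, and the change was 0.55 ± 0.09 (SE), or 1.46-fold (limma adjusted p = 0.0469). Its second probe, A_55_P2012552, gave 1.23, 1.04 and 1.17 against 1.88, 1.59 and 1.96, a change of 0.66 ± 0.13 (SE, limma adjusted p = 0.0560). The first probe passed under 7 of 18 alternatives, with adjusted p from 0.00794 to 0.211 and changes from 0.44 to 0.64. The call was absent without any siGFP array, without circHIPK3 siRNA replicate 2 or 3, with median scaling, without the filter on dim probes, with the replicate block, with the first slide alone and with either slide block, where the change with the fixed block was 0.64 ± 0.13 (SE). The list as a whole had a median change of 0.06 with 7 probes higher and 4 lower without overlap (16.2% and 9.74% of all probes), and 26 of 51 lay below the median of all probes.

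**Figure D4:**
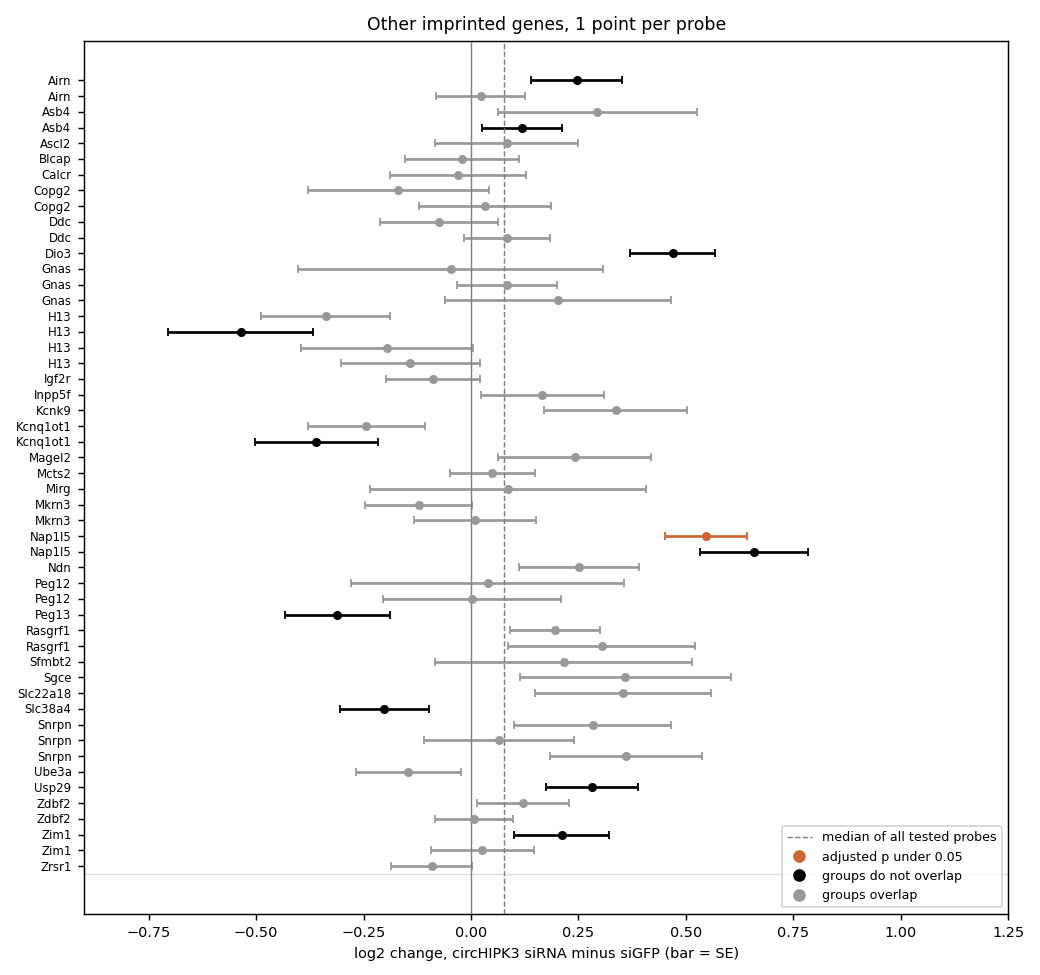
Log2 change with SE (x axis) of the 51 tested probes of other imprinted genes, in orange for the Nap1l5 probe that passed the test and in black where groups did not overlap. The points spread on both sides of the dashed line at 0.08, the median of all tested probes.

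Genes whose products act with the members made up the last list, with 46 of 55 genes tested by 66 probes. Of these, 1 probe fell, that of Cdkn1a, and 65 did not pass, a share near the 1.34% of all probes that passed. The signal peptidase complex, the partner of neuronatin, was represented by all 5 subunit genes and 8 probes, of which none passed limma's test and 2 had an unadjusted p under 0.05 (21.1% of all probes). The catalytic subunit gene Sec11a gave -0.36 ± 0.13 and -0.25 ± 0.11 (SE) by its 2 probes. Spcs2, an accessory subunit, gave -0.34 ± 0.10 and -0.12 ± 0.14 (SE). The groups did not overlap for both Sec11a probes and for the brighter Spcs2 probe, against 9.74% of all probes lower without overlap. Of the 8 probes, 7 lay below the median of all probes, 0.08. Sec11c (-0.01) and both Spcs3 probes (0.01 and 0.02) belong to the brightest quartile of tested probes, whose own median change was -0.01. Among the calcium pumps of the endoplasmic reticulum and their small regulators, which neuronatin resembles in sequence, none of 4 probes passed limma's test. Of these, 1 had an unadjusted p under 0.05 (21.1% of all probes). Atp2a2, the main such pump, gave -0.01 ± 0.18 and 0.11 ± 0.18 (SE), and Sln, which encodes sarcolipin, gave 0.48 ± 0.12 (SE, limma adjusted p = 0.102) at a dim signal.

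For Cdkn1c the related genes were the cyclins, kinases and inhibitors of the G1 phase, with 14 probes of 9 genes. Cdkn1a, a paralogous kinase inhibitor gene, fell from 0.36 ± 0.14 to -0.46 ± 0.07 (SD, n = 3), by 0.81 ± 0.11 (SE) on the log2 scale (limma adjusted p = 0.0297). Its second probe gave -1.01 ± 0.29 (SE). The call held in 9 of 18 alternatives, with adjusted p from 0.00415 to 0.227, and was lost on leaving out each siGFP array in turn, or replicate 2 or 3 of the circHIPK3 siRNA group. It was also lost with slide as a fixed block, with the first slide alone, with the replicate block and without the filter on dim probes. Of the 14 probes, 6 were lower and 1 higher without overlap, against 9.74% and 16.2% of all probes, 7 had an unadjusted p under 0.05, against 21.1%, and the median change was -0.24. For Igf2, 12 probes of 8 receptor, binding protein and mRNA-binding protein genes were tested, and none passed limma's test, with 4 at an unadjusted p under 0.05. Of those 4 probes, 3 (both of Igf2bp2 and 1 of Igfbp2) were well above background on 2 of 3 siGFP arrays and entered only through the group where they are higher, so nothing is read from them. Of the 9 probes well above background on all 6 arrays, 1 had an unadjusted p under 0.05 (21.1% of all probes). Igf2bp2, which encodes an mRNA-binding protein, gave 0.48 ± 0.10 (SE) by 1 of these 3 dim probes. Igfbp2, a binding protein gene, gave 0.52 ± 0.16 by another of them and 0.13 ± 0.17 (SE) by a brighter probe, and an insulin receptor (Insr) probe gave 0.24 ± 0.09 (SE).

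For Dlk1, none of 11 Notch pathway probes passed limma's test, and 1 had an unadjusted p under 0.05, against 21.1% of all probes. The ligand gene Dll1 was at -0.41 ± 0.15 (SE) without overlap. For Plagl1, the paralog Plagl2 gave 0.52 ± 0.15, 0.27 ± 0.09 and 0.11 ± 0.11 (SE) by 3 probes. None of these passed, and 2 had an unadjusted p under 0.05 in limma (21.1% of all probes), all from this 1 gene. Among the keepers of imprints, with 14 probes of 10 genes, none passed limma's test and 5 had an unadjusted p under 0.05, against 21.1% of all probes. Uhrf1, which recruits the maintenance methyltransferase to replicated DNA, gave -0.48 ± 0.12 and -0.43 ± 0.09 (SE), both without overlap. Dnmt3l, a cofactor of methyltransferases in the germ line, gave 0.30 ± 0.11 (SE). Zfp57, a zinc finger protein that protects imprinted methylation, gave -0.62 ± 0.16 by a dim probe and 0.11 ± 0.10 (SE) by a brighter one, so that its probes disagreed.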

How the data were processed

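Total RNA of 6 samples was measured on single-colour Agilent arrays. Each spot's intensity, linear and already background-subtracted, comes from the scanner files the authors deposited. Agilent Feature Extraction 11.0.1.1 made them, per the submitters' processing notes. The deposited table of log2 values holds 31868 probes with column medians of 9.7965 to 9.7968 and correlates at 0.99993 or above with the log2 intensity of the same array. Its normalization is not given in the sources used here, and it served as an alternative.

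Of 43020 spots that were no controls, those with a non-uniformity or population outlier flag were dropped. Log2 intensities were reduced by the 75th percentile of the array and averaged per probe, giving 39429 probes (12 lacked a value on an array and were dropped). A probe counted as well above background if more than 0.5 of its spots did. No probe was saturated. The RefSeq table of GRCm38.p6 named 27234 probes by accession. The array design names another build (mm9), so no gene coordinates are printed, and the windows of promoter sequence carry RefSeq's own. Probes well above background on all 3 arrays of a group, 31371 in all, were fitted in R 4.3.3 by limma 3.58.1 (lmFit, then eBayes, with group as the sole term and Benjamini-Hochberg adjustment over all of them, threshold 0.05). The procedure was tested on simulated data. Figures used matplotlib 3.10.9 in Python 3.11.15.

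Members and lists were chosen with earlier results of these data known. The lists name every gene that passed and, where none did, up to 3 genes with non-overlapping groups and the largest changes. The alpha cell marker list is not reported here. Blcap, Ins2, Atp2a2, Sec11c and Spcs3 were named outside that rule, after their values were seen. Beside Peg10, Casd1 (0.12 and 0.17) and Asb4 (0.12 by 1 probe) were higher without overlap and are not described above. Other settings numbered 17 (scaling, background correction, value table, filters, 1 probe per gene, variance, replicate and slide blocks, each array left out), and the first slide alone was added after seeing the data. The fixed slide block gives each probe the same change as the first slide alone. The numbers of same-numbered replicates do not pair the samples by the labels, and their deviations correlated at -0.0044, 0.267 and -0.113.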

Additional observations from a re-analysis of the deposited data

How the results depend on the processing

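The mean Nnat change of -0.62 over both probes kept its direction under all 18 alternatives, not all of which could move it. A changed filter on dim probes, trend and robust variance and the replicate block leave this estimate as it is by construction. With 1 probe per gene it is the value of the brighter probe alone, -0.55. Nnat was chosen by its lower signal here, so the kept direction is no separate support. It was -0.72 with median scaling, -0.50 with slide as a fixed block and with the first slide alone, and -0.68 to -0.58 when each array was left out. Counts of calls moved much more. Over all tested probes 421 passed, against 786 with median scaling, 776 with trend and robust variance, 267 with the value table, 216 with slide as a random block, 2 with the first slide alone, 1 with slide as a fixed block (3319 at an unadjusted p under 0.05 in limma), 0 without the filter on dim probes (6818), 0 with the replicate block (6369) and 0 to 1722 when each array was left out (4101 to 8468 at an unadjusted p under 0.05), the highest without circHIPK3 siRNA replicate 1. Among the imprinted genes of the main list 1 probe passed, against 4 with trend and robust variance (both Nnat probes and the 2 brighter Plagl1 probes), 2 with median scaling, 2 with normexp and 0 with the value table, no filter, 1 probe per gene, the replicate block, slide as a fixed or random block and the first slide alone, and 0 to 2 when each array was left out. For the other imprinted genes the count of 1 became 2 with normexp and with trend and robust variance, and 0 with median scaling, no filter, the replicate block, either slide block and the first slide alone, and was 0 to 1 when each array was left out. For the genes of the same domains the count of 0 became 1 without circHIPK3 siRNA replicate 1, so that the range was 0 to 1. For the partners the count of 1 became 3 with median scaling and with trend and robust variance, 0 with no filter, the replicate block, slide as a fixed block and the first slide alone, and 0 to 1 when each array was left out. With 1 probe per gene the Nnat probe that passed is not in the fit, so the 0 of the main list there is no lost call. The cause of the other moves was not tested. Fits that leave out arrays or add a block have fewer arrays or fewer residual degrees of freedom, whose part was not tested either. The replicate block rests on numbers that do not pair the samples. With 6 arrays, a call lost in these fits does not by itself show a smaller change. For Nnat the mean change was smaller within the first slide, which is also what the fixed slide block estimates (-0.50 against -0.62). For the Mest and Peg10 probes, in the dimmest quartile, the main fit gave 0.38 and 0.48. Normexp gave 0.01 and 0.28, and quantile normalization, which keeps the background correction, gave 0.10 and 0.31. The part of background correction in these changes was not tested.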
